A study of Mus musculus with 10 samples.

Results

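The genes described here were 9 components of the Hedgehog signalling pathway, the receptor Ptch1, the signal transducer Smo, the co-receptors Boc and Cdon, the inhibitors Hhip and Sufu, and the transcription factors Gli1, Gli2 and Gli3. They were chosen by gene symbol from the table of normalised counts. All 9 were among its 15078 genes, and all 9 passed the filter on low values that left 13644 genes for testing. RNA sequencing was done on 10 libraries of sorted mouse skeletal cells. The BM-MSC group (n = 3) held bone marrow mesenchymal stem cells and the P-SSC group (n = 3) periosteal skeletal stem cells, both from wild-type mice at steady state. The sample titles of both groups read host, steady state, and do not say whether these mice carried a graft or received tamoxifen. The graft BM-MSC group (n = 4) held Tomato+ cells from the marrow of Postn CreER;tdTomato femurs, which had been transplanted under the skin of wild-type hosts and were collected 5 months later. The hosts were given tamoxifen shortly after transplantation, so that Tomato marked cells that then used Postn and the descendants of those cells. Postn is also used by osteoblasts and fibroblasts, so the label is not restricted to stem cells. All cells were sorted as CD51+CD200+. BM-MSC 2+4 and P-SSC 2+5 each combined the RNA of a pair of mice. The labels gave no age.

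In vertebrates, a Hedgehog ligand binds Patched and so lifts its block on Smoothened, a transducer that acts in the primary cilium. Gli transcription factors, held back by Sufu and processed into repressors without ligand, then activate target genes, among them Ptch1, Hhip and Gli1 themselves, which makes these 3 genes common readouts of the pathway. Boc, Cdon and Gas1 are surface proteins that help present the ligand. In bone, Indian hedgehog from growth plate cartilage and Gli1-expressing progenitors near the growth plate and in the periosteum are the best known parts of the pathway.

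The clearest difference among the 9 genes lay in the co-receptors. Cdon was measured in every P-SSC library and was at 0 or within 3 reads in all 7 marrow libraries, and Boc was highest in the 3 P-SSC libraries. Ptch1 was lowest in P-SSCs and rose in graft BM-MSCs relative to them. The Gli factors had low and scattered counts, with some libraries at 0. Between graft BM-MSCs and P-SSCs, 3 of the 9 genes passed the test (Ptch1 higher, Boc and Cdon lower), against 18.1% of all genes tested. Between P-SSCs and BM-MSCs, Cdon alone passed, as a rise in P-SSCs, against 9.15% of all genes. Between graft BM-MSCs and BM-MSCs none of the 9 passed, against 7.67% of all genes, and none had an unadjusted p under 0.05 in limma. Of the 9 genes, edgeR and DESeq2 also called 0 in that comparison, beside 316 and 1947 of all genes tested. The test was limma on log2(value + 1) with Benjamini-Hochberg adjustment over all genes tested, and a gene passed at an adjusted p under 0.05. Values of the groups compared did not overlap for 3 of the 9 genes between graft BM-MSCs and P-SSCs (26.6% of all genes), for 1 between graft BM-MSCs and BM-MSCs (25.0%), and for 3 between P-SSCs and BM-MSCs (30.9%). The 4 graft libraries enter both graft comparisons, and each steady-state group also enters a pair of comparisons. Nothing in the labels says that the libraries of a group came from separate experiments, although the study's methods state that each held distinct mice, and p-values measure the spread between these libraries.

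Promoter sequences are shown for Cdon and Ptch1, the members with the highest and the lowest level in P-SSCs relative to the other groups. RefSeq promoters (GRCm38.p6) were matched for 7 of the 9 genes, not for Gli1 and Boc. The 250 bases before the start are printed on the gene's strand, 5′ to 3′, with CpG dinucleotides in capitals. The Cdon window, chr9:35451826-35452075 on the plus strand, ends at the start of 1 annotated transcript, whereas the gene as annotated begins upstream at 35421128. The Ptch1 window, chr13:63565736-63565985 on the minus strand, likewise ends at the start of 1 annotated transcript, whereas the gene as annotated begins upstream at 63573598.
Cdon: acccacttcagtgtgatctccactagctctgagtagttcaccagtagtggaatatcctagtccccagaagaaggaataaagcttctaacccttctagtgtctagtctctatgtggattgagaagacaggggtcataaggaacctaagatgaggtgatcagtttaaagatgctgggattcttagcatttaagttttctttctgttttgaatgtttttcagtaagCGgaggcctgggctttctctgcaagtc
Ptch1: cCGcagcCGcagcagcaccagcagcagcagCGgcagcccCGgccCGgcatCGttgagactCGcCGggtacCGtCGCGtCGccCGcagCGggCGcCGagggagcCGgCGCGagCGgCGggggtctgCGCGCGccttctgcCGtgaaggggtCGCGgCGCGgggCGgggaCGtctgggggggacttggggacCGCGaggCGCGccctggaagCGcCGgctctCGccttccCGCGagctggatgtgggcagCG
The Cdon window held 1 CpG and had a GC content of 42.8%. The Ptch1 window held 41 CpGs and had a GC content of 78.4%. Over all 32851 promoter windows of this length the medians were 6 CpGs and 52.4% GC. The Gli binding motif GACCACCCA, searched on both strands, was in 0 of the 7 windows and in 0.225% of all windows. Its shorter core ACCACCC, which lies within that motif, was found in 1 of the 7, that of Gli2, on the opposite strand starting at -205 from the transcript start. This core was in 3.92% of all windows.

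Some properties of the libraries touch these results. Depth ranged from 15415421 to 25223295 reads, and 3 reads were taken as the floor of detection. Graft libraries detected 9308 to 11674 genes and steady-state libraries 12217 to 13341. Genes over 65% GC were high relative to genes of 50% to 60% GC in P-SSC 4 and the 4 graft libraries (by 1.52 to 2.80 on the log2 scale) and low in the other 5 (by -1.81 to -1.51). Graft and BM-MSC libraries therefore lay on opposite sides of this GC split, and a GC effect and the group cannot be told apart between them. P-SSCs could be compared with graft BM-MSCs within a side only through P-SSC 4. Where the GC split was a covariate, its size was thus estimated only from P-SSC 4 against P-SSC 1 and 2+5. The marrow stroma markers Cxcl12, Kitl, Lepr and Adipoq summed to 663311 to 812775 normalised counts in graft BM-MSCs, 830214 to 1130910 in BM-MSCs and 4505 to 8842 in P-SSCs. The periosteal and fibroblast markers Pi16, Cd34, Postn, Ctsk and Fmod summed to 219514 to 419588 in P-SSCs and to 6648 to 14447 in the marrow groups. Of these, Cd34 was at 0 in all 4 graft libraries and Pi16 in 3 of them. Ctsk did not follow the sum, with 5010 to 9680 in graft BM-MSCs, 5001 to 8116 in P-SSCs and 3375 to 5411 in BM-MSCs. In bulk RNA, fewer cells that use a gene and less of its RNA per cell cannot be told apart.

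**Figure D1:**
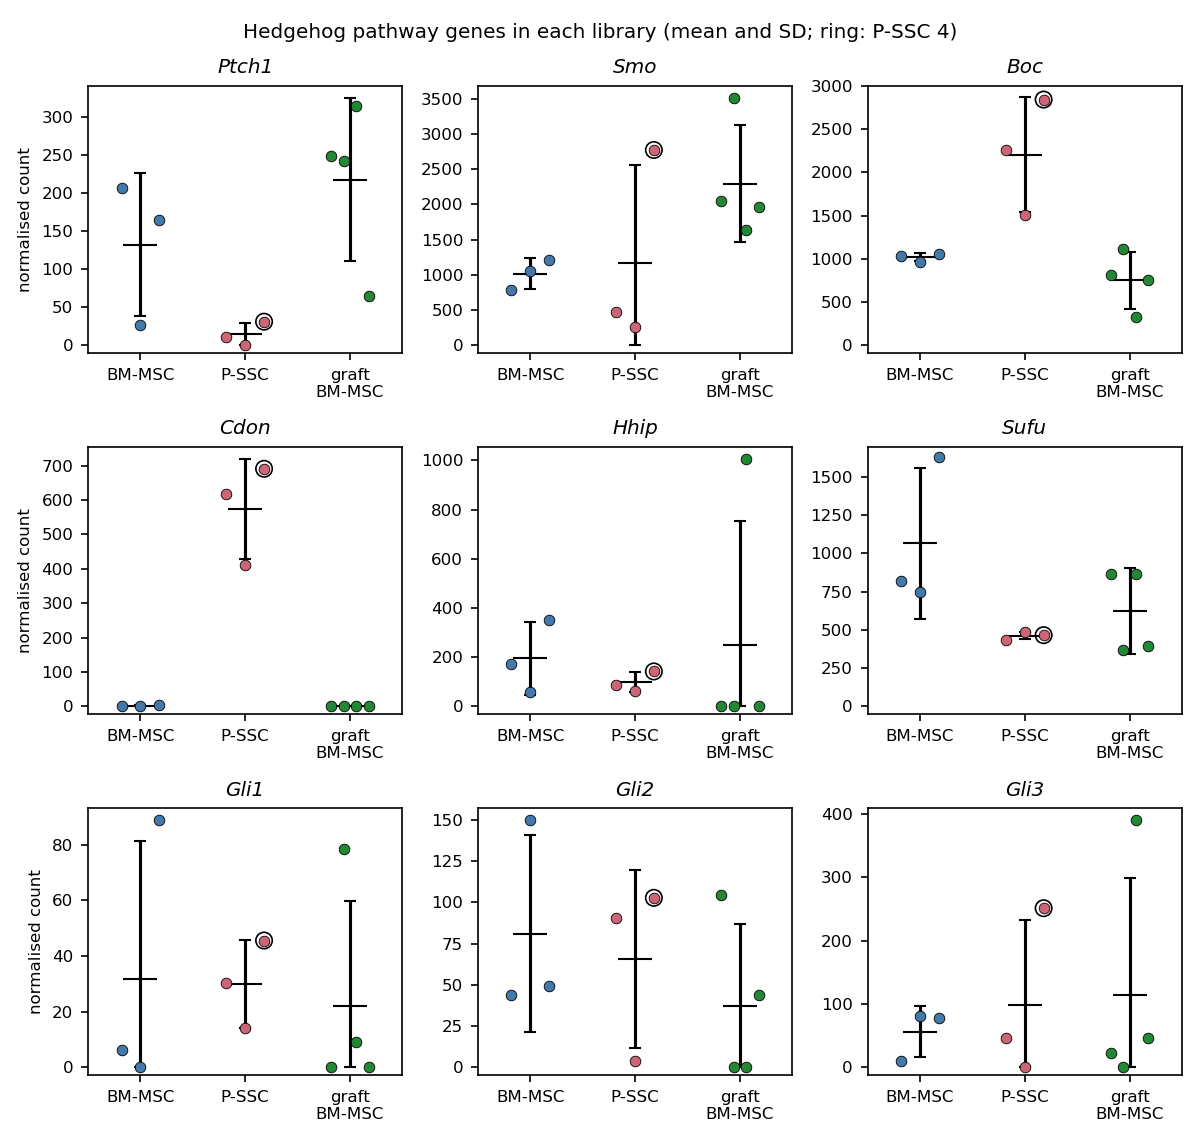
Normalised count (vertical axis, linear) of each of the 9 genes in the 3 BM-MSC, 3 P-SSC and 4 graft BM-MSC libraries. Points are libraries, horizontal bars are group means, whiskers are the SD (the lower one stops at 0), and the ring marks P-SSC 4, whose Smo of 2774 stands apart from the other P-SSC libraries. Cdon is above 400 in the 3 P-SSC libraries and at most 2.96 in the others.

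Ptch1 (ENSMUSG00000021466, chromosome 13, 63508328 to 63573598, minus strand, GRCm38), the receptor that holds Smo inactive and is itself induced by the pathway, had normalised counts of 207, 26.4 and 165 in BM-MSC 1, 2+4 and 3. In P-SSC 1, 2+5 and 4 the counts were 11.4, 0 and 31.0, and in graft BM-MSC 1 to 4 they were 249, 243, 315 and 64.7. All graft libraries were above all P-SSC libraries, while BM-MSCs overlapped with both. Ptch1 rose in graft BM-MSCs over P-SSCs, with a log2 change of 4.68 (SE 1.38, limma with Benjamini-Hochberg adjusted p = 0.0396). It fell short of the threshold between P-SSCs and BM-MSCs, with a log2 change of -3.74 (SE 1.47, limma adjusted p = 0.181), and between graft BM-MSCs and BM-MSCs, with 0.94 (SE 1.38, limma adjusted p = 0.695). The graft call was near the threshold and was lost under 13 of 24 alternatives. Among these it was lost without BM-MSC 1 or 3, P-SSC 1 or 2+5, or graft BM-MSC 1, 2 or 3, with limma adjusted p of 0.0613 to 0.133. The log2 change was 3.24 without P-SSC 2+5, the library at 0, and 5.74 without P-SSC 4 (limma adjusted p = 0.0201). On whole reads, edgeR gave an adjusted p of 0.128 and DESeq2 of 0.0057. With the GC split as a covariate the change was 2.56 (limma adjusted p = 0.55), and it was 2.88 with a replicate block (0.349). The call was also lost at a pseudocount of 0.1 (limma adjusted p = 0.0657) and with only both groups in the fit (0.092). On its side of the GC split, P-SSC 4 (31.0) was below each of the 4 graft libraries, whose mean was 7.02 times as high.

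Smo (ENSMUSG00000001761, chromosome 6, 29735503 to 29761365, plus strand), the transducer that Ptch1 restrains, had normalised counts of 780, 1058 and 1211 in BM-MSC 1, 2+4 and 3, and 473, 260 and 2774 in P-SSC 1, 2+5 and 4. In graft BM-MSC 1 to 4 they were 2056, 3508, 1637 and 1966. Every graft library exceeded every BM-MSC library, and P-SSC 4 lay within the graft range while the other P-SSC libraries lay below all marrow libraries. No comparison passed the limma test. The log2 change was 1.65 from P-SSCs to graft BM-MSCs (SE 0.67, adjusted p = 0.116), 1.13 from BM-MSCs to graft BM-MSCs (SE 0.67, adjusted p = 0.318) and -0.52 from BM-MSCs to P-SSCs (SE 0.72, adjusted p = 0.91). Without P-SSC 4, the first of these was 2.64 with a limma adjusted p of 0.00157. With the GC split as a covariate it was -0.34 (limma adjusted p = 0.775). On the GC-high side the graft mean was 0.826 times the value in P-SSC 4, and on the GC-low side the BM-MSC mean was 2.78 times that of P-SSC 1 and 2+5. The annotated transcript of Smo has a GC content of 57.8%, where the genes tested had a median of 49.7%, and the part of the GC split in its values was not tested beyond these comparisons.

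Boc (ENSMUSG00000022687, chromosome 16, 44485049 to 44558897, minus strand), a ligand-binding co-receptor, had normalised counts of 1036, 965 and 1051 in BM-MSC 1, 2+4 and 3. The P-SSC libraries 1, 2+5 and 4 had 2261, 1512 and 2843, and graft BM-MSC 1 to 4 had 810, 1118, 324 and 752. P-SSCs were thus above every marrow library, and the marrow groups overlapped with each other. Boc fell by 1.64 on the log2 scale from P-SSCs to graft BM-MSCs (SE 0.42, limma adjusted p = 0.0209), beside a median change of all genes of -0.47. With the median of all genes brought near 0 by quantile normalization (to -0.02), the Boc call was kept. It was higher in P-SSCs than in BM-MSCs by 1.07 (SE 0.45), which did not pass over all genes (limma adjusted p = 0.213). Graft BM-MSCs and BM-MSCs differed by -0.57 (SE 0.42, limma adjusted p = 0.42). The graft call was lost under 7 of 24 alternatives. These were without P-SSC 1 (log2 change -1.60, limma adjusted p = 0.0804), without P-SSC 4 (-1.43, 0.0577), with only both groups in the fit (0.0705) and with the GC split as a covariate (-2.05, 0.0809). The others were a correction for GC content (-0.71, limma adjusted p = 0.386), a replicate block (-1.86, 0.097) and both of these together (-1.14, 0.206). On the GC-high side P-SSC 4 was 3.79 times the graft mean, and on the GC-low side the other P-SSC libraries averaged 1.85 times the BM-MSC mean.

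Cdon (ENSMUSG00000038119, chromosome 9, 35421128 to 35507652, plus strand), a co-receptor related to Boc that is also known from muscle differentiation, had 618, 411 and 691 normalised counts in P-SSC 1, 2+5 and 4. BM-MSC 1, 2+4 and 3 had 1.04, 0 and 2.96, which were 1, 0 and 3 reads. It was listed at 0 in all 4 graft libraries. The P-SSC values overlapped with no marrow library, and both marrow groups were at or under the floor of 3 reads, so no fold is given between them. Against that floor averaged over the graft libraries, Cdon was at least 233-fold higher in P-SSCs than in graft BM-MSCs (limma log2 change -9.13, SE 0.95, adjusted p = 0.000127). Relative to BM-MSCs, the ratio of P-SSC to BM-MSC counts was 428, with a counting interval of 167 to 1574 (exact, 95%), on 1631 and 4 reads (limma log2 change 8.13, SE 1.01, adjusted p = 0.000534). These limits cover counting error only. Both calls held with any single library left out. On the GC-high side, P-SSC 4 stood at 691 against 0 in the grafts, and on the GC-low side P-SSC 1 and 2+5 averaged 515 against 1.33 in BM-MSCs (limma adjusted p = 0.00681 within these 5 libraries). Among genes of a similar mean (within a factor of 1.2), 20.2% of the graft values and 3.59% of the steady-state values were at 0.

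The summed muscle and tendon markers were highest in P-SSCs, as Cdon was. The summed cartilage and osteoblast markers were highest in BM-MSCs, and the summed blood markers were lowest in P-SSCs. Col2a1 made up most of the cartilage sum in BM-MSCs. Sox9 did not follow that sum, with 23.2 to 65.8 in BM-MSCs, 25.5 to 317 in P-SSCs and 114 to 933 in graft BM-MSCs. The muscle markers Acta1 and Ckm summed to 207 to 977 normalised counts in P-SSCs and were at 0 in all 7 marrow libraries, and the tendon markers Scx and Tnmd summed to 3976 to 6699 in P-SSCs, 18.8 to 32.7 in BM-MSCs and 0 to 71.2 in graft BM-MSCs. Tnmd made up most of the tendon sum in P-SSCs. Scx was 18.7, 3.82 and 798 in P-SSC 1, 2+5 and 4, and 1.04, 10.5 and 20.7 in BM-MSC 1, 2+4 and 3. Ckm was 1.94 in P-SSC 4. The part of muscle or tendon cells in the Cdon level was not tested.

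**Figure D2:**
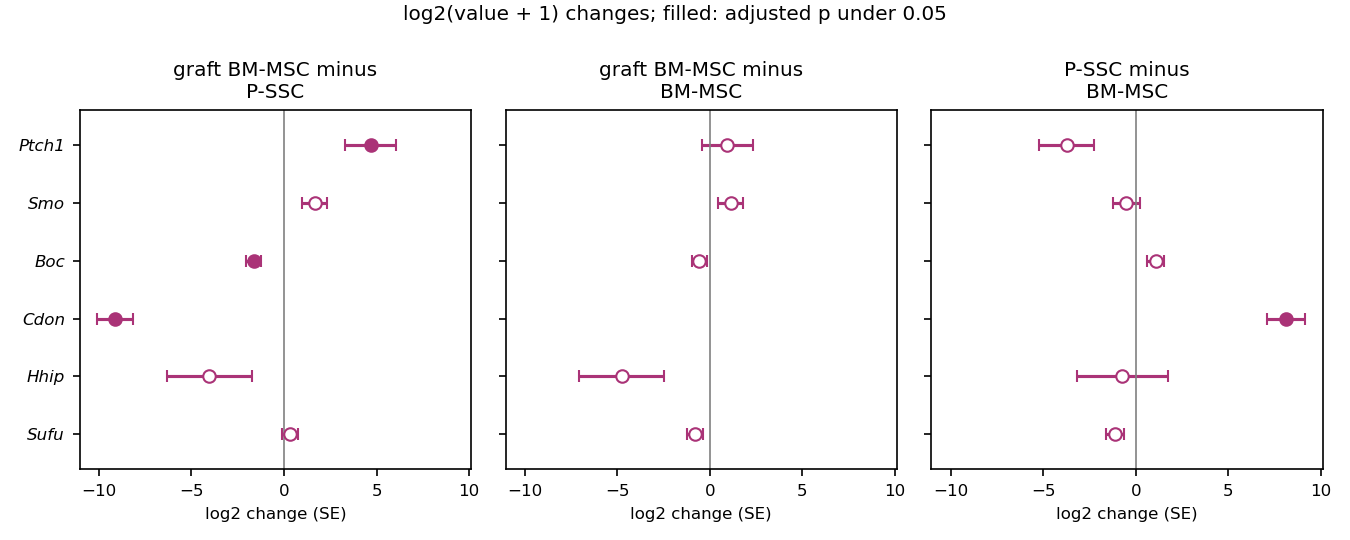
Change on the log2(value + 1) scale (horizontal axis) with its SE for the receptor, transducer, co-receptor and inhibitor genes in the 3 comparisons. Filled points passed the limma test, namely Ptch1, Boc and Cdon between graft BM-MSCs and P-SSCs and Cdon between P-SSCs and BM-MSCs. No point is drawn for Cdon between the marrow groups, where both were at or under 3 reads.

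Hhip (ENSMUSG00000064325, chromosome 8, 79965851 to 80058006, minus strand), a membrane protein that binds and sequesters the ligands and is induced by the pathway, had normalised counts of 173, 59.1 and 350 in BM-MSC 1, 2+4 and 3. The P-SSC libraries 1, 2+5 and 4 had 88.3, 62.4 and 142. Among the grafts, graft BM-MSC 3 measured 1004 (997 reads) and the remaining 3 libraries were listed at 0. The graft group therefore held both the lowest and the highest values. The log2 change was -4.05 relative to P-SSCs (SE 2.30, limma adjusted p = 0.252), -4.78 relative to BM-MSCs (SE 2.30, limma adjusted p = 0.224) and -0.73 from BM-MSCs to P-SSCs (SE 2.46, limma adjusted p = 0.996). Graft BM-MSC 3 decided both graft values. Without it, Hhip passed relative to P-SSCs (log2 change -6.54, limma adjusted p = 0.00362) and to BM-MSCs (-7.27, limma adjusted p = 0.00721). The same library had the highest levels of the neutrophil granule genes S100a8 (40754) and S100a9 (31393) among all libraries, and their part in its Hhip value was not tested. Hhip shares 175 exon bases with a small RNA on the opposite strand. Among genes of a similar mean, 18.04% of graft values were at 0.

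Sufu (ENSMUSG00000025231, chromosome 19, 46396896 to 46488804, plus strand), the cytoplasmic inhibitor that binds Gli proteins, had normalised counts of 818, 747 and 1632 in BM-MSC 1, 2+4 and 3. The counts were 435, 484 and 465 in P-SSC 1, 2+5 and 4, and 867, 368, 868 and 394 in graft BM-MSC 1 to 4. P-SSCs were below all BM-MSC libraries with little spread, and the graft libraries fell into a pair on either side of the P-SSC range. No comparison passed. The log2 change was -1.11 from BM-MSCs to P-SSCs (SE 0.48, limma adjusted p = 0.233), -0.80 from BM-MSCs to graft BM-MSCs (SE 0.45, limma adjusted p = 0.293) and 0.32 from P-SSCs to graft BM-MSCs (SE 0.45, limma adjusted p = 0.652). The sum of the blood markers Ptprc, Cd79a, Lyz2, S100a8, S100a9, Hbb-bt and Hba-a1 was 51456 to 168368 in BM-MSCs, 585 to 2618 in P-SSCs and 6761 to 88366 in graft BM-MSCs. Graft BM-MSC 1 had the lowest graft sum and a Sufu count of 867, and graft BM-MSC 3 had the highest graft sum and a Sufu count of 868. BM-MSC 3 had the highest sum of all libraries and the highest Sufu count (1632). The part of blood cells in the Sufu level was not tested.

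The Gli factors carry the signal to the nucleus. Gli1 (ENSMUSG00000025407, chromosome 10, 127329882 to 127341974, minus strand), an activator and target of the pathway, had normalised counts of 6.27, 0 and 88.8 in BM-MSC 1, 2+4 and 3. It had 30.1, 14.0 and 45.6 in P-SSC 1, 2+5 and 4, and 0, 78.4, 9.06 and 0 in graft BM-MSC 1 to 4. P-SSCs were the only group with Gli1 above 3 reads in every library, yet their values lay within the range of both other groups. The means were 29.9 ± 15.8 (SD, n = 3) in P-SSCs, 31.7 ± 49.5 in BM-MSCs (SD, n = 3) and 21.9 ± 37.9 in graft BM-MSCs (SD, n = 4). Gli1 shares 62 exon bases with Arhgap9 and 265 with an antisense RNA, both on the opposite strand. The strand setting of the counting was not given in the sources used here, so reads in those stretches cannot be assigned with certainty.

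Gli2 (ENSMUSG00000048402, chromosome 1, 118834132 to 119053619, minus strand), the main activator in many tissues, had 43.9, 150 and 49.3 normalised counts in BM-MSC 1, 2+4 and 3. In P-SSC 1, 2+5 and 4 it had 90.4, 3.82 and 103, the middle value being 3 reads, and in graft BM-MSC 1 to 4 it had 105, 0, 0 and 44.0. Graft libraries at 0 and graft libraries in the steady-state range were equally many. Gli3 (ENSMUSG00000021318, chromosome 13, 15463235 to 15730026, plus strand), the main repressor, had 9.40, 80.1 and 77.9 in BM-MSC 1, 2+4 and 3, and 45.7, 0 and 251 in P-SSC 1, 2+5 and 4. In graft BM-MSC 1 to 4 it had 23.2, 0, 390 and 45.7. It shares 188 exon bases with a transcript on the opposite strand. All 3 groups overlapped for both genes. None of the 9 tests of Gli1, Gli2 and Gli3 passed, with limma adjusted p of 0.355 to 0.991, and the lowest under any alternative was 0.12. Zeros were common at these levels. Among genes with a mean near that of Gli1, 62.4% of graft values and 28.9% of steady-state values were at 0, and near that of Gli2 the shares were 46.4% and 15.6%. A difference in the Gli factors was not detectable at this depth and spread, which does not show that the groups were alike.

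Levels were compared between genes per kilobase of annotated exon. In P-SSCs the highest level was that of Boc, 495 ± 150 normalised counts per kb (SD, n = 3), followed by Smo with 208 ± 248, Cdon with 74.3 ± 18.8 and Sufu with 60.01 ± 3.20. Smo overlapped with each of these neighbours, and the ranges of Cdon and Sufu also overlapped. In BM-MSCs the order was Boc (229 ± 10.4), Smo (181 ± 38.9) and Sufu (139 ± 64.0), and Smo and Sufu overlapped. In graft BM-MSCs Smo came first with 408 ± 148 (SD, n = 4), ahead of Boc with 169 ± 73.4 and Sufu with 81.2 ± 36.6, and no graft library's Boc reached the lowest graft Smo. Ptch1, Hhip and the Gli factors had means of at most 27.7 per kb in any group. Ptch1 was the lowest of the 9 in P-SSCs (0.997 ± 1.11) and Cdon the lowest in both marrow groups.

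**Figure D3:**
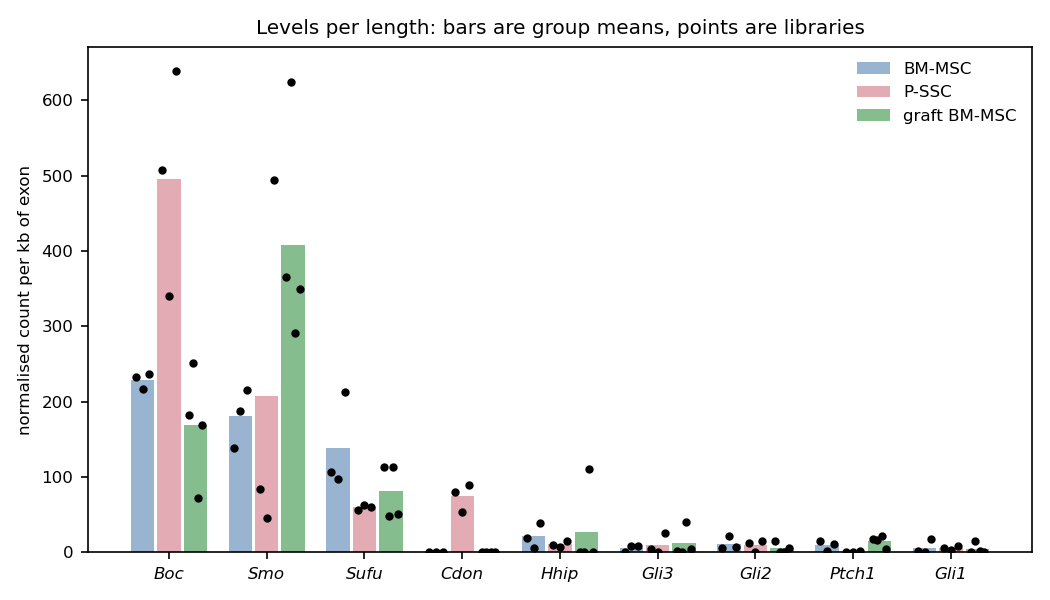
Normalised count per kb of exon (vertical axis, from 0) of the 9 genes, ordered by the average of the group means. Bars are group means and points are libraries. Boc leads in P-SSCs (495 per kb) and Smo in graft BM-MSCs (408 per kb), while the group means of Hhip, Ptch1 and the Gli factors are at most 27.7 per kb. The Hhip mean in graft BM-MSCs (27.7, SD 55.3) comes from graft BM-MSC 3 alone, whose point lies far above it.

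Patterns over the 10 libraries were compared by Pearson's r of log2(value + 1), as a description across libraries that share groups and the GC split. The genes most like Cdon, among those with a mean of at least 100, were Ahnak2, Nox4 and Duox1 (r of 0.996 each), all near 0 outside P-SSCs. For Boc they were Sirpa (0.952), Akt2 (0.945) and Tmem63a (0.944). For Ptch1 they included Ino80d (0.952) and Dlg5 (0.942), and for Smo they were Ankrd13a (0.987), Baz1b (0.979) and Otud5 (0.974). The genes most like Hhip were Rfc4 (0.971), Lnx2 (0.969) and Heatr1 (0.965), and those most like Sufu were Fcnb (0.936), Birc5 (0.891) and Slc37a3 (0.885). Gli1 was most like Polr3a (0.910), Pabpc4 (0.879) and Mrtfb (0.867), Gli2 like D5Ertd579e (0.976), Tmem186 (0.938) and Tmem201 (0.934), and Gli3 like Osbpl6 (0.932), Fgd1 (0.931) and Ube3c (0.919). Within the 9 genes the highest r was 0.809, between Boc and Cdon, followed by 0.728 between Ptch1 and Smo. The lowest was -0.750, between Cdon and Ptch1. The 3 usual targets had r of -0.046 between Gli1 and Ptch1, 0.377 between Gli1 and Hhip and -0.134 between Ptch1 and Hhip. Gli1 and Hhip were at 0 in some libraries, and Gli1 counts were low, so these r cannot decide whether the targets differed in pattern.

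The rest of the pathway was described from 69 further genes, of which 63 were in the table and 60 were tested. Between graft BM-MSCs and P-SSCs, 2 rose and 7 fell in the grafts, 15% of those tested. Relative to BM-MSCs, 4 rose and 1 fell in the grafts, 8.33% of those tested. Between P-SSCs and BM-MSCs, 2 were higher and 1 lower in P-SSCs, 5% of those tested. The shares over all genes were those given above. The median log2 change of the 60 was -0.82 between graft BM-MSCs and P-SSCs (all genes -0.47), -0.19 between graft BM-MSCs and BM-MSCs (all genes -0.53) and 0.71 between P-SSCs and BM-MSCs (all genes 0.00219).

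Ligands were scarcely measured. Ihh is not analysed here. Shh was at 0 in every library but graft BM-MSC 1 (7.91) and 3 (38.3), and Dhh in every library but P-SSC 4 (35.9). Of the 4 genes tested for ligands and their release, Scube2, which helps carry released ligand, had 32.2, 11.5 and 384 normalised counts in P-SSC 1, 2+5 and 4. It was at 0 in the 3 BM-MSC libraries and, apart from 1.73 in graft BM-MSC 4, in the grafts. Scube2 rose in P-SSCs over BM-MSCs (limma adjusted p = 0.0126) and fell in graft BM-MSCs relative to P-SSCs (limma log2 change -5.40, adjusted p = 0.0083). P-SSC 4 carried most of the Scube2 count, and no fold of group means is given for that reason. The tendon marker Scx had its values in the same library order (18.7, 3.82 and 798 in P-SSC 1, 2+5 and 4). The tendon marker Tnmd had the reverse order (4649, 6695 and 3178 in P-SSC 1, 2+5 and 4). The part of tendon cells in the Scube2 level was not tested. Without P-SSC 4 the log2 change was -3.98 to graft BM-MSCs (limma adjusted p = 0.00378) and 4.35 from BM-MSCs (0.00548), and without P-SSC 2+5 the changes were -6.46 and 6.82. Disp1, the transporter that releases Hedgehog from its source, was chosen after its values were seen. It had 2908, 3135 and 1833 in P-SSC 1, 2+5 and 4, 309, 505 and 336 in BM-MSC 1, 2+4 and 3, and 252, 0, 210 and 342 in graft BM-MSC 1 to 4. P-SSCs were above all marrow libraries, but the change to graft BM-MSCs missed the threshold (log2 change -5.29, SE 1.71, limma adjusted p = 0.0561), as it did under 17 of 24 alternatives. Without graft BM-MSC 2, the graft library at 0, it was -3.28 (limma adjusted p = 0.000402).

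The co-receptor Gas1 had 63.7, 90.7 and 111 in BM-MSC 1, 2+4 and 3, 172, 155 and 7439 in P-SSC 1, 2+5 and 4, and 702, 1053, 2310 and 875 in graft BM-MSC 1 to 4. Its high values were thus those of P-SSC 4 and the grafts, the libraries on the GC-high side. Gas1 did not pass in any comparison (limma adjusted p = 0.0865 for graft BM-MSCs against BM-MSCs, log2 change 3.66), and between graft BM-MSCs and P-SSCs its log2 change was 0.92, or 2.75 with a limma adjusted p of 0.00754 without P-SSC 4.

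Among 27 kinases, ubiquitin ligases and adaptors tested, 2 rose and 1 fell in graft BM-MSCs relative to P-SSCs, 11.1% against 18.1% of all genes. Relative to BM-MSCs, 4 rose in graft BM-MSCs, 14.8% against 7.67% of all genes. Csnk1a1, a casein kinase that marks Gli proteins for processing, had 627, 312 and 465 normalised counts in BM-MSC 1, 2+4 and 3, 287.7, 249.7 and 2419 in P-SSC 1, 2+5 and 4 and 3063, 4350, 3994 and 3826 in graft BM-MSC 1 to 4. P-SSC 4 was nearer to the grafts than to the other P-SSC libraries, as it was for Smo. Csnk1a1 rose by 2.76 on the log2 scale (SE 0.68, limma adjusted p = 0.0182), by 2.28 without P-SSC 1 (0.0926), by 2.18 without P-SSC 2+5 (0.0837) and by 3.81 without P-SSC 4 (9.59e-05). With the GC split as a covariate the change was 0.64 (limma adjusted p = 0.479), and the call was lost under 7 of 24 alternatives. Cul1, a scaffold of ubiquitin ligases, had 4437, 3195 and 2176 in BM-MSC 1, 2+4 and 3, 995, 449.7 and 1450 in P-SSC 1, 2+5 and 4, and 3734, 3145, 2038 and 3504 in the grafts. P-SSCs were below every marrow library, with a log2 change of 1.80 to graft BM-MSCs (SE 0.42, limma adjusted p = 0.0127) and of -1.86 relative to BM-MSCs (SE 0.45, limma adjusted p = 0.0244). The second of these calls was lost without BM-MSC 1 or 2+4 or P-SSC 1 or 2+5 (limma adjusted p of 0.0596 to 0.111), and the first with the GC split as a covariate (1.06, limma adjusted p = 0.359). Spop, the adaptor that directs Gli proteins to degradation, fell from 3737 ± 962 (SD, n = 3) in P-SSCs to 1461 ± 408 (SD, n = 4) in graft BM-MSCs (log2 change -1.36, limma adjusted p = 0.00927), and this call was lost under 5 of 24 alternatives, among them leaving out P-SSC 1 (-1.18, 0.0522), the GC split as a covariate (-1.37, 0.109) and a correction for GC content (-0.54, 0.332).

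Relative to BM-MSCs, the kinase subunit Prkaca rose by 3.61, the ubiquitin ligase scaffold Cul3 by 3.55 and the casein kinase Csnk1g2 by 3.53 on the log2 scale in graft BM-MSCs (limma adjusted p of 0.0391, 0.0469 and 0.0129). For Prkaca, P-SSC 4 (1071) was above the graft range of 582 to 1031, while BM-MSCs and the other P-SSC libraries were at 34.8 to 90.4. Csnk1g2 showed the same split, with 1438 in P-SSC 4, 1256 to 2286 in the grafts and 100.6 to 255 in the other 5 libraries. For Cul3 it did not, since P-SSC 4 had 51.4 and the grafts 126 to 1047. The Prkaca call was lost without any single BM-MSC or graft library (limma adjusted p of 0.0539 to 0.149). The Csnk1g2 call was lost without BM-MSC 1 (0.0517) or 3 (0.0602), and that of Cul3 with any single library other than P-SSC 4 and graft BM-MSC 2 left out (0.0605 to 0.172). Without BM-MSC 2+4 the Cul3 change was 2.81, and without graft BM-MSC 2 it was 4.22. With the GC split as a covariate, the changes were -0.21 for Prkaca, 0.76 for Csnk1g2 and 4.55 for Cul3, and none passed. Only 40 of all 13644 genes passed in that fit, in which 1 library, P-SSC 4, set the size of the split.

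Of 19 genes of the primary cilium tested, 2 fell in graft BM-MSCs relative to P-SSCs, 10.5% of them against 18.1% of all genes. Ttc21b, which takes part in transport within the cilium, was listed at 0 in all 4 graft libraries, against 245, 108 and 315 normalised counts in P-SSC 1, 2+5 and 4 and 261, 380 and 376 in BM-MSC 1, 2+4 and 3. Compared with the grafts, it was at least 90.6-fold higher in P-SSCs (limma adjusted p = 0.000456) and at least 138-fold higher in BM-MSCs (limma adjusted p = 0.00182). Wdr35, another gene of ciliary transport, was 218, 81.0, 173 and 173 in graft BM-MSC 1 to 4, below its 1059, 665 and 784 in P-SSC 1, 2+5 and 4 (log2 change -2.43, SE 0.47, limma adjusted p = 0.00507). With the GC split as a covariate, the calls of Wdr35 relative to P-SSCs and of Ttc21b relative to BM-MSCs were lost (limma adjusted p of 0.0687 and 0.0882). The cilium genes had a median log2 change of -1.97 between graft BM-MSCs and P-SSCs (all genes -0.47) and of -1.44 between graft BM-MSCs and BM-MSCs (all genes -0.53). Of the 19, 17 and 18, respectively, did not pass. Graft zeros were common at such levels. Ttc21b had a mean of 168, and near the similar mean of Cdon 20.2% of graft values and 3.59% of steady-state values were at 0.

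Of 5 further target genes tested, Pthlh, a hormone gene that Hedgehog controls in the growth plate, had 1912, 1446 and 1197 normalised counts in P-SSC 1, 2+5 and 4. It had 2.09, 59.1 and 0 in BM-MSC 1, 2+4 and 3 and was listed at 0 in all 4 graft libraries. Pthlh was at least 618-fold higher in P-SSCs than in the grafts (limma adjusted p = 0.000522) and rose by 8.03 on the log2 scale in P-SSCs over BM-MSCs (SE 1.51, limma adjusted p = 0.00593). That rise was 9.73 without BM-MSC 2+4 and 6.77 without BM-MSC 3. Ccnd2, the cyclin of early cell cycle entry, fell from 3625 ± 381 (SD, n = 3) in P-SSCs to 1644 ± 856 (SD, n = 4) in graft BM-MSCs (log2 change -1.29, limma adjusted p = 0.0378), a call lost with any single library other than graft BM-MSC 1 and 4 left out (limma adjusted p of 0.0594 to 0.138). It was lost under 16 of 24 alternatives, and the change was -0.46 with a correction for GC content (limma adjusted p = 0.408) and -0.16 with that correction and a replicate block (0.851).

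**Figure D4:**
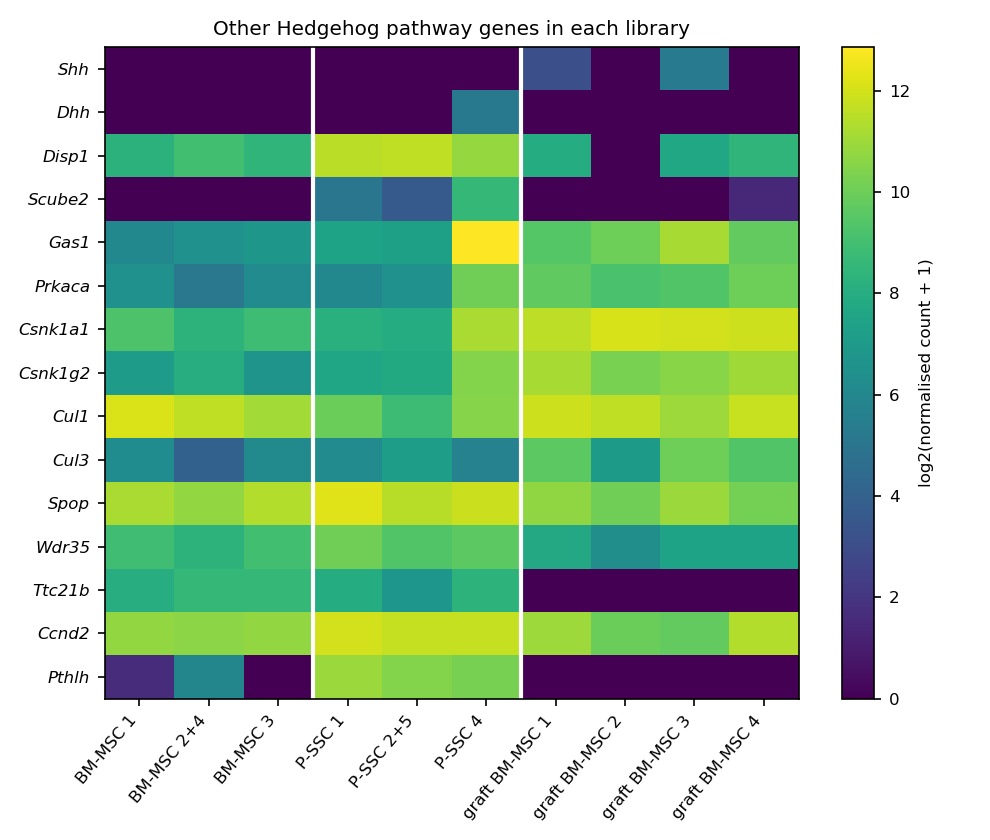
Level of 15 further genes of the pathway, as log2(normalised count + 1) in colour, in each of the 10 libraries (columns, with white lines between the groups). Pthlh and Disp1 are bright in P-SSCs, and Scube2 is bright in P-SSC 4 and lower in the other P-SSC libraries. Ttc21b is at 0 in the 4 graft libraries, and Gas1, Prkaca, Csnk1a1 and Csnk1g2 in P-SSC 4 are near the graft libraries.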

How the data were processed

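RNA of sorted mouse cells was sequenced as poly(A) libraries, and 10 libraries in 3 groups were analysed. The deposited table holds a signal value per gene and library, which the authors made as read counts divided by a size factor with DESeq2. Per the submitters' processing notes, the tools were cutadapt 1.15, STAR 2.5, featureCounts of Subread 1.4.6 and DESeq2 1.26.0 with build GRCm39, whereas the study's methods name GRCm38. Positions, exon lengths and GC content came from GENCODE M21 (GRCm38), matched by gene ID for 15052 of 15078 genes, and promoters from RefSeq. The steps of each library's values gave whole reads for 100% of values (within 0.01 read), so depth could be recovered. The design foresaw limma for normalised values, in place of the DESeq2 test of the study. limma 3.58.1 (R 4.3.3, trend) was fitted to log2(value + 1) of the 13644 genes with a mean of at least 10, with all 10 libraries in 1 fit, 2-sided, with Benjamini-Hochberg adjustment, and tested on simulated data. Alternatives were other pseudocounts (0.1 and 5), filters, scalings, groups, single libraries left out, edgeR 4.0.16 and DESeq2 1.42.0 on whole reads, a GC correction, the GC split as a covariate and a replicate block. Fits within the GC-low libraries, and without P-SSC 4 and graft BM-MSC 2 together, were chosen after seeing the data. The 9 genes and all lists were chosen with earlier results of these data known. Further pathway genes were named where called, at most 3 per list and comparison, with Gas1, Ihh, Dhh and Shh in any case; a few genes that the rules would name are not reported here.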

Additional observations from a re-analysis of the deposited data

Results flagged for a closer look

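In the group of 4 graft BM-MSC libraries, 3 of the 9 genes had a highest value far from the other libraries by Dixon's criterion. The criterion was applied to untransformed counts, where graft zeros were common, so no chance rate is given for it. Hhip was 1004 in graft BM-MSC 3 and listed at 0 in the other graft libraries, a case in which any value above 0 meets the criterion. Gli3 was 390 in graft BM-MSC 3 and at most 45.7 in the other graft libraries. Gli1 was 78.4 in graft BM-MSC 2 and at most 9.06 in the other graft libraries.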

How the results depend on the processing

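Of 872 values of single genes under alternatives, 715 kept their direction and side of the threshold, 114 lost a call, 21 gained one and 22 changed sign. These values leave out the 210 of Gli1, Gli2 and Gli3, and those of Cdon between the marrow groups. Some alternatives cannot move a log2 change, such as other filters or a library left out of the group not compared. The 715 therefore overstate how stable the estimates were. Of the 9 genes, the number called between graft BM-MSCs and P-SSCs was 3, and it was 1 with only both groups in the fit, with the GC split as a covariate, with a GC correction and replicate block, and at an adjusted p under 0.01. It was 0 with a replicate block and 1 to 3 with a library left out. Of all 13644 genes, 2464 were called in the main fit, 1696 with only both groups and 1081 with the GC split as covariate. There were 411 with a GC correction and block, 269 with the block, 1332 at 0.01 and 1583 to 3005 with a library left out. Between graft BM-MSCs and BM-MSCs the number of the 9 genes called was 0, and 0 to 1 with a library left out. Of all genes, 1046 were called there, and 476 to 1584 with a library left out. Between P-SSCs and BM-MSCs the number of the 9 genes called was 1, and 2 with only both groups in the fit. It was 2 without P-SSC 4 and graft BM-MSC 2 (chosen after seeing the data), and 0 with a replicate block, alone or with a GC correction. Of all genes, 1248 were called there, 1852 with only both groups and 1487 without P-SSC 4 and graft BM-MSC 2. With the block 54 were called, and 77 with the block and a GC correction. The block changed the Cdon calls (limma adjusted p of 0.0506 and 0.139), but equal numbers mark no shared animal or day in the labels. Deviations of equally numbered libraries had correlations of -0.019 to 0.030. Only BM-MSC 1 and P-SSC 1 joined the steady-state groups in that check, which cannot show that no animal was shared. Between graft BM-MSCs and P-SSCs, log2 changes that changed sign were those of Hhip (1.44 with edgeR, 1.36 with DESeq2), Smo (-0.34, GC split as covariate) and Gas1 (-1.03 with edgeR, -1.05 with DESeq2, -2.75 with the GC split as covariate, -0.24 with the block, -0.0373 to 2.75 with a library left out). Between graft BM-MSCs and BM-MSCs they were Hhip (0.35 with edgeR, 0.36 with DESeq2), Sufu (0.0721 with a GC correction, 0.22 with the block too) and Boc (0.30, GC correction). With the GC split as covariate they were Ptch1 (-2.24), Smo (-1.85), Prkaca (-0.21) and Gas1 (-1.83), values that rest on P-SSC 4 for the size of the split. Between P-SSCs and BM-MSCs the changes of sign were those of Smo (0.14 with edgeR, 0.19 with DESeq2, -1.51 to 0.20 with a library left out) and Hhip (2.25 with the block, 2.501 with a GC correction too). The direction of Gli1, Gli2 or Gli3 changed under some alternative in 6 of 9 comparisons. The causes were not tested. The graft libraries' many zeros limit what can be read of genes near the floor.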
